A study of Sus scrofa with 6 samples.

Results

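AIF1, CD14 and CD163 are genes used as markers of macrophages, and their signal was read in the back muscle of pigs. A probe set was taken as a member when its platform symbol was exactly AIF1, CD14 or CD163, which gave 5 of the 23999 non-control probe sets on the Affymetrix Porcine Genome Array: 1 for AIF1, 2 for CD14 and 2 for CD163. The study set 3 Northeastern Indigenous boars, a Chinese local breed, against 3 Large White boars, which served as the control breed. All 6 animals were slaughtered at 150 days after being reared under the same feeding and housing, and the labels name no treatment. Each gave 1 piece of longissimus dorsi, a muscle that runs along the spine, and 1 array; no samples were pooled.

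Macrophages are resident in the connective tissue between muscle fibres and in fat, where they take up debris and dying cells and release signals that shape repair and inflammation. AIF1, also called IBA1, is a calcium-binding protein that binds and bundles actin and takes part in membrane ruffling and phagocytosis. CD14 is the co-receptor that takes bacterial lipopolysaccharide from its carrier LBP and hands it to the TLR4 and LY96 complex. CD163 is the scavenger receptor for haemoglobin bound to haptoglobin, and in the pig it is also the receptor that the PRRS virus needs to enter macrophages. The 3 proteins thus stand for cell movement, sensing and clearance. In whole muscle, fewer macrophages and less of these RNAs per macrophage cannot be told apart.

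Values below are log2 intensities after quantile normalization, in which 1 unit is a doubling of brightness. The 2 breeds were compared with limma over 14399 probe sets, those whose mean log2 intensity reached the 40th percentile, a level of 5.85, with Benjamini-Hochberg adjustment over all of them and a threshold of 0.05. Under this fit 0 of 14399 probe sets (0%) were called and 2706 (18.8%) had an unadjusted p under 0.05. The muscle fibre transcripts CKM and DES were read on all arrays and were lowest on Large White replicate 1. CKM, the muscle creatine kinase, was at 15.21 to 15.23 on the Northeastern Indigenous arrays, and at 12.78 to 15.26 on the Large White arrays. DES, the muscle intermediate filament gene, was at 12.91 to 13.63 on the Northeastern Indigenous arrays, and at 7.26, 13.23 and 11.59 on Large White replicates 1, 2 and 3. Within a breed, probe sets had a median SD of 0.27 in Northeastern Indigenous and 0.49 in Large White boars. Large White replicates 1 and 3 stood apart on the first principal component, which held 69.4% of the variance, and Large White replicate 2 lay among the Northeastern Indigenous arrays. The breed differences of the 3 tested probe sets are therefore also given without those arrays.

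Of the 5 member probe sets, 3 were above the filter, 1 for each gene, and all 3 were lower on average in Northeastern Indigenous boars. None was called. CD14 was kept through its Large White values, since its Northeastern Indigenous mean, 5.60, was under the filter level. The 2 member probe sets under the filter, 1 for CD14 and 1 for CD163, differed by -0.02 and -0.04. AIF1 and CD163 read lower in all 3 Northeastern Indigenous boars than in any Large White boar, and CD14 overlapped between the breeds. The fitted differences were -2.42 for AIF1, -1.66 for CD163 and -1.57 for CD14, in log2 units. Among the 5438 named genes tested, 1.66% had a difference as low as that of AIF1 or lower, 5.11% as low as that of CD163 and 5.66% as low as that of CD14. Breeds that did not overlap, with the Northeastern Indigenous arrays lower, were seen for 2 of the 3 probe sets, against 10.9% of all probe sets tested. The same 2 had an unadjusted p under 0.05 in limma with a lower Northeastern Indigenous mean, as did 9.97% of all probe sets tested.

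**Figure D1:**
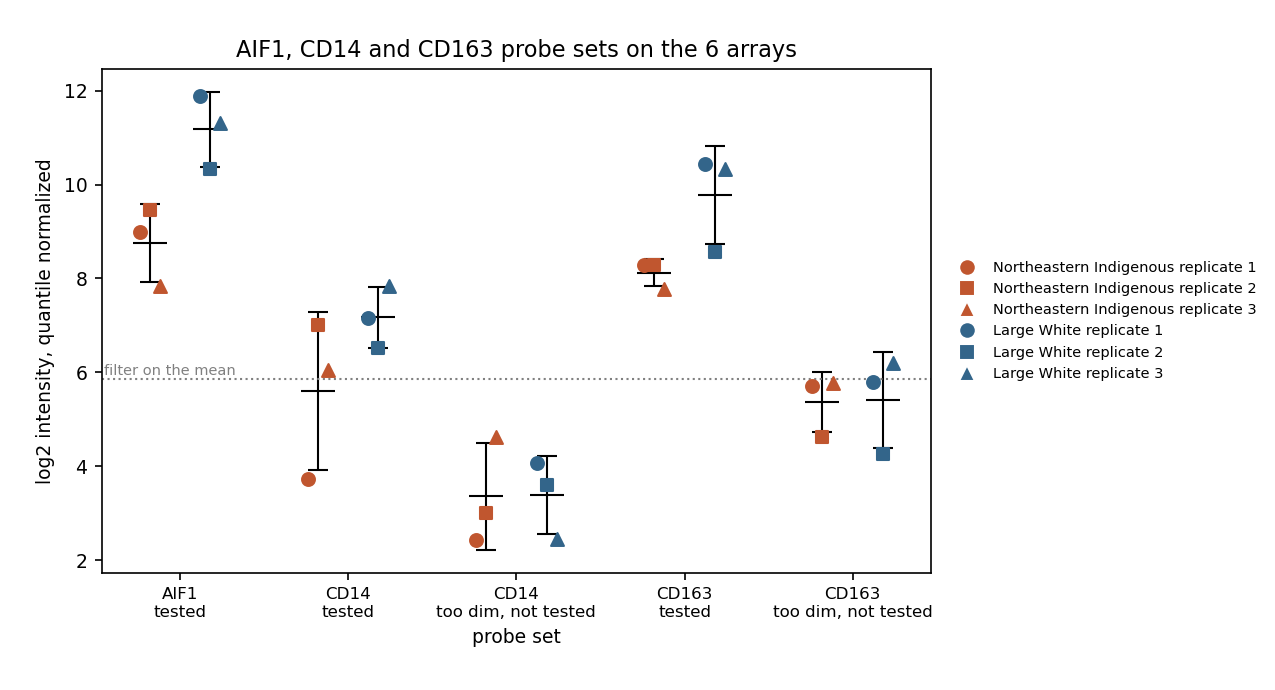
Log2 intensity (vertical axis, quantile normalized) of the 5 probe sets of AIF1, CD14 and CD163 on each array, with Northeastern Indigenous boars in orange on the left and Large White boars in blue on the right of each pair. Horizontal bars are means and whiskers are SDs over 3 arrays; the dotted line is the level of 5.85 that a probe set's mean had to reach, and only AIF1 and the brighter CD163 probe set part the breeds.

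AIF1 was read by 1 probe set. It had log2 intensities of 8.98, 9.46 and 7.85 in Northeastern Indigenous replicates 1, 2 and 3, against 11.90, 10.32 and 11.32 in Large White replicates 1, 2 and 3. All Northeastern Indigenous arrays were below all Large White arrays, with a gap of 0.86 between the highest of one breed and the lowest of the other. As deposited, on the linear scale, the intensities were 469.4, 666.6 and 217.1 in the Northeastern Indigenous boars, against 3536, 1224 and 2529 in the Large White boars. The means were 8.76 ± 0.83 in Northeastern Indigenous and 11.18 ± 0.80 in Large White boars (SD, n = 3 each), so the spread within the breeds was about the same. The difference was -2.42 ± 0.55 (SE; 95% confidence interval -3.70 to -1.13), which corresponds to a 5.34-fold higher mean in Large White boars. Its unadjusted p in limma was 0.00297, which ranked it 188 of 14399, and its adjusted p was 0.224.

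CD163 was read by 2 probe sets of different brightness. The brighter had log2 intensities of 8.29, 8.28 and 7.79 in Northeastern Indigenous replicates 1, 2 and 3, against 10.43, 8.57 and 10.33 in Large White replicates 1, 2 and 3. The Northeastern Indigenous arrays were close together, Large White replicates 1 and 3 were high, and Large White replicate 2 lay 0.27 above the highest Northeastern Indigenous array. The means were 8.12 ± 0.29 in Northeastern Indigenous and 9.78 ± 1.05 in Large White boars (SD, n = 3 each). The difference was -1.66 ± 0.52 (SE; 95% confidence interval -2.89 to -0.42), a 3.15-fold higher mean in Large White boars, with an adjusted p of 0.227 in limma (unadjusted p = 0.0154).

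The second CD163 probe set was under the filter and was not part of the comparison. It read 5.71, 4.62 and 5.78 in Northeastern Indigenous replicates 1, 2 and 3, against 5.80, 4.25 and 6.19 in Large White replicates 1, 2 and 3. The breeds overlapped, since Large White replicate 2 was the lowest array of all, and replicate 2 was also the lowest of the Northeastern Indigenous boars. Its means differed by -0.04, and with no filter its adjusted p in limma was 0.979. Large White replicates 1 and 3 were above all Northeastern Indigenous arrays here too. For replicate 1 the margin was very small, 5.796 against 5.778 in Northeastern Indigenous replicate 3, unlike on the brighter probe set. The dimmer one was made from another GenBank sequence of the gene per the platform annotation.

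CD14 also had 2 probe sets, and the brighter stood at the 46.45th percentile of mean intensity, not far above the filter. It had log2 intensities of 3.74, 7.01 and 6.05 in Northeastern Indigenous replicates 1, 2 and 3, against 7.16, 6.52 and 7.83 in Large White replicates 1, 2 and 3. Northeastern Indigenous replicate 1 was far below the other 5 arrays, and Northeastern Indigenous replicate 2 was above Large White replicate 2. The deposited intensities were 12.005, 129.8 and 65.0 in the Northeastern Indigenous boars, against 164.1, 90.2 and 250.3 in the Large White boars. The means were 5.60 ± 1.68 in Northeastern Indigenous and 7.17 ± 0.65 in Large White boars (SD, n = 3 each). The Northeastern Indigenous mean itself was under the filter level, so the probe set was kept through its Large White values. The difference was -1.57 ± 0.83 (SE; 95% confidence interval -3.53 to 0.39), which includes 0, with an adjusted p of 0.321 in limma. It was -0.64 without Northeastern Indigenous replicate 1, and -0.99 with 32 added to each intensity before the logarithm.

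The dimmer CD14 probe set was under the filter. It read 2.44, 3.004 and 4.63 in Northeastern Indigenous replicates 1, 2 and 3, against 4.07, 3.61 and 2.46 in Large White replicates 1, 2 and 3. The highest value of all was Northeastern Indigenous replicate 3, and the breeds overlapped. The means differed by -0.02 (adjusted p = 0.99 in limma with no filter).

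The lower means of AIF1 and CD163 in Northeastern Indigenous boars came with different weight from the single Large White arrays. The mean of the Northeastern Indigenous arrays lay below Large White replicates 1, 2 and 3 by differences of -3.13, -1.56 and -2.56 for AIF1, and of -2.31, -0.44 and -2.21 for CD163. For CD14 the same differences were -1.56, -0.92 and -2.23. AIF1 on Large White replicate 2 was thus well above the Northeastern Indigenous boars, while CD163 on that array was near them. Without Large White replicates 1 and 3 together, which leaves 1 Large White array and assumes that it varies like the other breed, the differences were -1.56 for AIF1, -0.44 for CD163 and -0.92 for CD14. Their adjusted p in limma were then 0.409, 0.689 and 0.818.

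Without Large White replicate 2, AIF1 and CD163 were called, with differences of -2.84 (adjusted p = 0.0107 in limma) and -2.26 (adjusted p = 0.00532). CD14 was not (-1.89, adjusted p = 0.149). In that fit 4437 of 14399 probe sets (30.8%) were called, and 15.5% were called lower in Northeastern Indigenous boars. The 2 calls therefore stand on the contrast between Large White replicates 1 and 3 and the Northeastern Indigenous arrays, in which a large part of the array was called. The difference of each gene was below 0 with any 1 array left out.

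**Figure D2:**
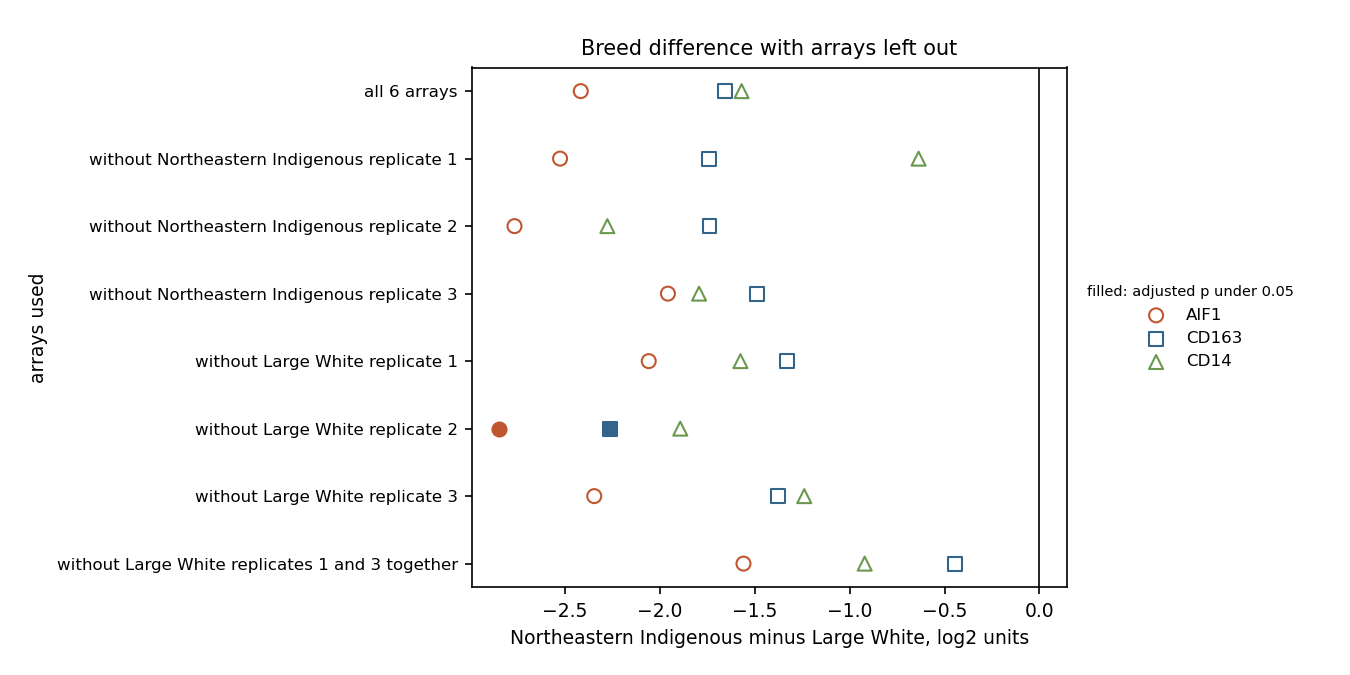
Breed difference (horizontal axis, Northeastern Indigenous minus Large White, log2 units) of the brighter probe set of AIF1, CD163 and CD14 with all 6 arrays and with arrays left out (rows). Filled symbols had an adjusted p under 0.05 in limma, which was the case for AIF1 and CD163 without Large White replicate 2; CD163 was nearest to 0, at -0.44, without Large White replicates 1 and 3, and CD14, at -0.64, without Northeastern Indigenous replicate 1.

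Whether the 3 genes differed unequally was examined with the within-array difference of 2 genes. AIF1 minus CD163 was 0.69, 1.18 and 0.06 in Northeastern Indigenous replicates 1, 2 and 3, against 1.46, 1.76 and 0.99 in Large White replicates 1, 2 and 3. The breeds overlapped, since Northeastern Indigenous replicate 2 was above Large White replicate 3. The breed difference of this ratio was -0.76, with an exact permutation p of 0.2 (two-sided, n = 3 per breed; 0.6 adjusted over 3 pairs). For AIF1 minus CD14 it was -0.85 (exact permutation p = 0.5, adjusted 0.75), with values from 1.80 to 5.24 in Northeastern Indigenous and from 3.49 to 4.74 in Large White boars. For CD163 minus CD14 it was -0.09 (exact permutation p = 1, adjusted 1), and its sign turned without Northeastern Indigenous replicate 2 (0.54) or 3 (0.30) or Large White replicate 1 (0.25). The smallest p that this permutation test allows with 3 against 3 arrays is 0.1, so no pair could have passed, and it does not show whether the 3 genes differed equally or unequally between the breeds. With 1 array left out, AIF1 minus CD163 ran from -1.03 to -0.47. AIF1 minus CD14 was -1.89 without Northeastern Indigenous replicate 1, and -0.49, -0.16 and -0.48 without Northeastern Indigenous replicates 2 and 3 and Large White replicate 1.

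Other macrophage genes had lower means in Northeastern Indigenous boars in most cases. Of 59 listed genes other than the 3 members, 39 had a named probe set and 31 were above the filter. Of these 31, 29 were lower and 2 higher in Northeastern Indigenous boars, where 45.3% of all 5438 named genes were lower. Their median difference was -1.84 log2 units, against 0.09 over all named genes. By the adjusted p, 0 of 31 were called, as were 0 of 5438 genes (0%). An unadjusted p under 0.05 in limma with a lower value was found for 22 of 31, against 11.4% of all named genes. CD86 had a Northeastern Indigenous mean under the filter level and was kept through its Large White values; among the other 30 genes 28 were lower, with a median of -1.84. The breeds did not overlap in 15 of 31 with the Northeastern Indigenous arrays lower, against 12.3% of all named genes.

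Among these were the complement genes C1QC and C1QA, whose products form part of the C1q molecule that macrophages secrete. C1QC read 9.75, 10.30 and 9.26 in Northeastern Indigenous replicates 1, 2 and 3, against 13.82, 11.76 and 13.62 in Large White replicates 1, 2 and 3. C1QA read 7.85, 8.37 and 7.52 in the Northeastern Indigenous boars, against 10.58, 9.53 and 10.94 in the Large White boars. Both were higher on each Large White array than on any Northeastern Indigenous array, and like AIF1 they kept a wide gap on Large White replicate 2. Their differences were -3.30 ± 0.58 and -2.44 ± 0.43 (SE), each with an adjusted p of 0.223 in limma. LY86, a partner of the toll-like receptor homologue CD180, differed by -1.84 ± 0.39 and CYBA, a subunit of the phagocyte NADPH oxidase, by -2.49 ± 0.55 (SE).

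MRC1, the mannose receptor of tissue macrophages, followed CD163 more than AIF1 on Large White replicate 2. It read 7.67, 8.57 and 7.26 in Northeastern Indigenous replicates 1, 2 and 3, against 10.93, 8.23 and 10.63 in Large White replicates 1, 2 and 3, so the breeds overlapped. SPI1, which encodes the transcription factor PU.1 that directs myeloid development, differed by -0.76 ± 0.32 (SE, adjusted p = 0.266 in limma). The 2 genes with higher means in Northeastern Indigenous boars were MARCO, a scavenger receptor, at 0.28 ± 0.42, and NCF1, another NADPH oxidase subunit, at 1.79 ± 0.37 (SE, adjusted p = 0.224). NCF1 read 7.71, 8.58 and 7.44 in the Northeastern Indigenous boars, against 6.36, 5.83 and 6.17 in the Large White boars, without overlap. Of all 5438 named genes, 867 were higher in Northeastern Indigenous boars without overlap. A second NCF1 probe set under the filter differed by -0.68, opposite in sign.

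**Figure D3:**
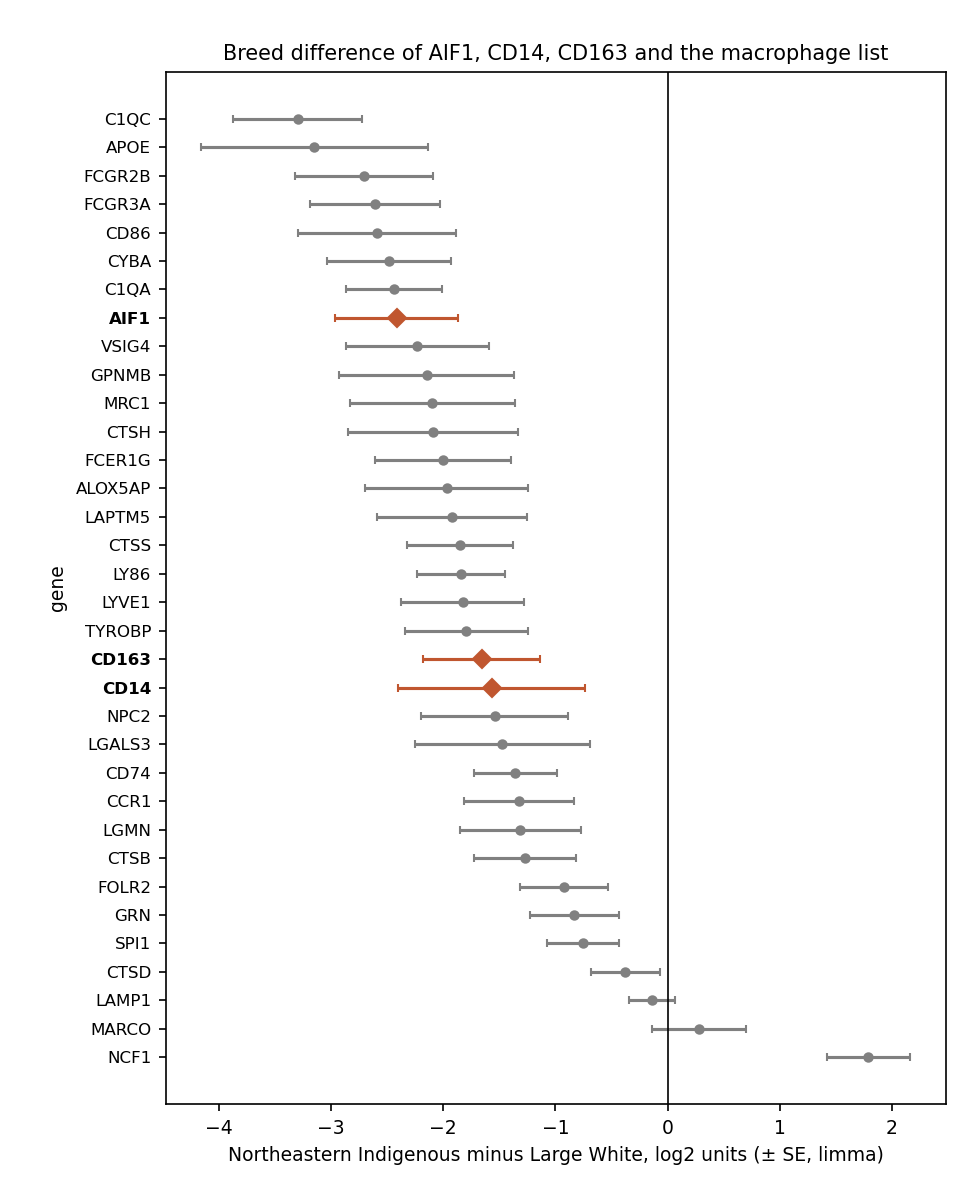
Breed difference (horizontal axis, Northeastern Indigenous minus Large White, log2 units) with limma's SE for the tested probe sets of AIF1, CD163 and CD14 (orange diamonds, bold names) and the 31 measured genes of the macrophage list (grey). NCF1 and MARCO are the genes right of 0, and C1QC, at -3.30, is the farthest left. CD14 and CD86 were kept through their Large White values.

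The genes around CD14 in lipopolysaccharide sensing differed in both directions. Of 17 measured genes of this list, 11 were lower and 6 higher in Northeastern Indigenous boars, with a median of -0.26 and 0 called. Over all 5438 named genes, 45.3% were lower and the median was 0.09. An unadjusted p under 0.05 in limma with a lower value was found for 4 of 17, against 11.4% of all named genes. TLR4, the signalling receptor, read 7.66, 7.07 and 6.29 in Northeastern Indigenous replicates 1, 2 and 3, against 9.88, 7.40 and 9.63 in Large White replicates 1, 2 and 3. TLR2, which also works with CD14, read 4.62, 6.25 and 5.63 in the Northeastern Indigenous boars, against 8.81, 6.19 and 8.25 in the Large White boars. Both were high on Large White replicates 1 and 3 and within the Northeastern Indigenous range on replicate 2. TLR4 and TLR2 differed by -1.97 ± 0.70 and -2.25 ± 0.74 (SE, adjusted p = 0.235 and 0.23 in limma), and the other kept probe set of TLR4 by -1.40. The TLR4 probe sets under the filter differed by -1.384, -2.645 and 0.145. TLR2 and IL10 had Northeastern Indigenous means under the filter level and were kept through their Large White values; of the other 15 genes, 9 were lower and 6 higher.

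LY96, the co-receptor bound to TLR4, read 9.67, 9.87 and 9.30 in Northeastern Indigenous replicates 1, 2 and 3, against 11.41, 8.49 and 11.46 in Large White replicates 1, 2 and 3. Large White replicate 2 was the lowest array of all for it. The adaptor MYD88 differed by -0.26 ± 0.60 and the inhibitor NFKBIA by -0.66 ± 0.27, while IKBKG, the regulatory subunit of the IKK complex, differed by 1.12 ± 0.38 (SE). A second MYD88 probe set under the filter differed by 1.335, opposite in sign, and read 0.003 on Large White replicate 2. CCL5, a chemokine that draws T cells and monocytes, differed by -2.06 ± 0.48 without overlap (adjusted p = 0.224 in limma). Both probe sets of LBP were under the filter. The median of this list was -0.60 with no filter and also with the filter at the 60th percentile, and 0.072 without Large White replicates 1 and 3.

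The haemoglobin and iron genes, among which CD163 acts, had a median near 0. Of 13 measured, 7 were lower and 6 higher in Northeastern Indigenous boars, with a median of -0.05 and 0 called. Over all named genes, 45.3% were lower and the median was 0.09. HP encodes haptoglobin, whose complex with haemoglobin is what CD163 takes up, and it differed in the opposite direction to CD163. It read 7.85, 7.96 and 6.42 in Northeastern Indigenous replicates 1, 2 and 3, against 4.405, 4.494 and 5.69 in Large White replicates 1, 2 and 3. All Northeastern Indigenous arrays were higher, as was the case for 867 of all 5438 named genes. The difference of HP was 2.55 ± 0.57 (SE, adjusted p = 0.224 in limma). The Large White mean of HP was under the filter level, so the gene was kept through its Northeastern Indigenous values. Of the 11 genes of this list other than HP and IL10, 6 were lower and 5 higher. On Large White replicate 2, where CD163 was near the Northeastern Indigenous boars, the Northeastern Indigenous mean of HP was higher by 2.91.

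Haem breakdown and related genes differed in both directions. HMOX1, the inducible haem oxygenase, read 7.32, 7.98 and 8.23 in Northeastern Indigenous replicates 1, 2 and 3, against 8.73, 7.99 and 8.19 in Large White replicates 1, 2 and 3, with overlap. HMOX2, the constitutive form, differed by 1.06 ± 0.29 (SE, adjusted p = 0.224 in limma) and did not overlap. The ferritin light chain gene FTL differed by -0.67 ± 0.25 and IL10, a cytokine that induces CD163, by -1.28 ± 0.62, kept through its Large White values. ADAM17, the protease that sheds CD163 from the cell surface, differed by -0.06 ± 0.28 (its other kept probe set by -0.59), and CSNK2B, whose human product binds the tail of CD163, by 0.77 ± 0.38 (SE). The ADAM17 probe sets under the filter differed by -1.60 and -3.825. The latter read 1.29 to 2.57 in Northeastern Indigenous and 5.22 to 6.57 in Large White boars, so the probe sets of ADAM17 differed in size. HBB, a globin gene that reflects red cells in the tissue, differed by 0.08 ± 0.27.

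The actin genes around AIF1 were mostly lower in Northeastern Indigenous boars. Of 18 measured, 15 were lower and 3 higher, with a median of -0.82 and 0 called, where 45.3% of all 5438 named genes were lower. Without AIF1L, 14 were lower and 3 higher. LCP1, RAC2 and CORO1A were also in the leukocyte list. GSN, which severs and caps actin filaments, read 13.26, 13.42 and 13.38 in Northeastern Indigenous replicates 1, 2 and 3, against 14.63, 13.93 and 14.61 in Large White replicates 1, 2 and 3, without overlap. It differed by -1.04 ± 0.22 (SE, adjusted p = 0.224 in limma), and a second, dimmer probe set of GSN by 0.27. LCP1, the leukocyte actin bundler plastin, differed by -1.87 ± 0.53 (its other kept probe sets by -0.42 and -1.27), the Arp2/3 subunits ARPC5 and ARPC1B by -1.84 ± 0.70 and -1.58 ± 0.64, and the capping protein gene CAPG by -1.75 ± 0.75 (SE). The LCP1 probe sets under the filter differed by -3.047 and -0.985. AIF1L, the paralogue of AIF1, differed by -0.08 ± 0.48. It read 4.97, 5.92 and 6.55 in the Northeastern Indigenous boars, against 5.95, 5.87 and 5.87 in the Large White boars, the breeds overlapped, and it was kept through its Large White values.

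Other macrophage and leukocyte genes were high on the same Large White arrays as AIF1 and CD163. Relative to the Northeastern Indigenous mean, the median gene of the macrophage list was at -0.12, 0.45 and -0.33 in Northeastern Indigenous replicates 1, 2 and 3, against 2.64, 0.47 and 2.27 in Large White replicates 1, 2 and 3. The list of 10 general leukocyte genes ran from -0.43 to 0.75 in Northeastern Indigenous boars, and was at 1.79, 0.19 and 1.51 in Large White boars. All 10 of its genes had lower means in Northeastern Indigenous boars (45.3% of all named genes did), with a median of -1.09, and 1 of them, PTPRC, was kept through its Large White values. PTPRC, the pan-leukocyte antigen CD45, differed by -0.63 ± 0.67 (SE, adjusted p = 0.573 in limma), and CD53 by -2.14 ± 0.75. Other members were ITGB2, a leukocyte integrin subunit, at -1.14 ± 0.42, LCP2 at -1.04 ± 0.42, SRGN at -1.77 ± 0.76 and RAC2 at -1.34 ± 0.59 (SE). A RAC2 probe set under the filter differed by -2.09.

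On Large White replicate 2 the leukocyte list was thus within the Northeastern Indigenous range, while AIF1 was 0.86 above it. The Northeastern Indigenous mean was under Large White replicate 2 for 27 of 31 macrophage genes, 7 of 10 leukocyte genes and 17 of 18 actin genes, against 50.5% of all named genes. The medians of these differences were -0.47, -0.19 and -0.24. The leukocyte and actin lists share LCP1, RAC2 and CORO1A. The macrophage list's median there, -0.47, was close to the -0.44 of CD163 and smaller in size than the -1.56 of AIF1.

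Fat and connective tissue genes were also high on Large White replicates 1 and 3. The adipocyte list of 8 genes was at -0.38, 0.52 and 0.003 in Northeastern Indigenous replicates 1, 2 and 3, against 4.86, -0.14 and 3.28 in Large White replicates 1, 2 and 3. Of these 8, PPARG and LIPE were kept through their Large White values. The fibroblast list of 12 genes ran from -0.36 to 0.35 in Northeastern Indigenous boars, and was at 2.02, 0.48 and 1.97 in Large White boars. The sarcomere list of 20 genes ran from -0.03 to 0.08 in Northeastern Indigenous boars, and was at -3.53, -0.02 and -0.25 in Large White boars. On Large White replicate 2, where adipocyte and sarcomere genes were at Northeastern Indigenous levels, AIF1 was 1.56 above the Northeastern Indigenous mean and CD163 0.44 above it. The fibroblast list on that array, at 0.48, was above its Northeastern Indigenous range. The median breed difference was -2.74 for the adipocyte list (7 of 8 genes lower in Northeastern Indigenous boars) and -1.39 for the fibroblast list (11 of 12 lower). It was 1.28 for the sarcomere list (20 of 20 higher). Of all named genes, 45.3% were lower. Without PPARG and LIPE, 5 of 6 adipocyte genes were lower, with a median of -1.755. Only the 2 brightest genes of each list are named here. FABP4, the fatty acid carrier of fat cells, differed by -1.66 ± 0.70 and LPL, lipoprotein lipase, by -0.97 ± 0.81 (SE). The matrix genes DCN and SPARC differed by -0.89 ± 0.34 and -1.34 ± 0.29, and the contractile genes MYL1 and TPM1 by 0.20 ± 0.18 and 0.66 ± 0.51 (SE). The part of the adipocyte, fibroblast and sarcomere levels in the breed difference of AIF1, CD163 and CD14 was not tested.

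The other cell type lists gave the following. Of 8 T and NK cell genes, 5 (CD3D, CD3E, CD2, CD8A and CD8B) were kept through their Large White values, and the other 3 were lower in Northeastern Indigenous boars (median -1.15). GNLY, a cytotoxic granule protein, differed by -1.15 ± 0.50, and CD247, a chain of the T cell receptor complex, by -1.74 ± 0.90 (SE). Of the 2 B cell genes measured, BLNK, an adaptor of B cell receptor signalling, differed by -2.32 ± 0.40 without overlap and JCHAIN, the joining chain of immunoglobulin, by -0.57 ± 0.59 (SE). Of the 3 neutrophil genes, PGLYRP1 was kept through its Northeastern Indigenous values; the others were S100A9 at 0.39 ± 0.43 and S100A12 at -0.38 ± 0.85 (SE). The 5 mast and dendritic cell genes had a median difference of -0.57, with CD83 at 0.62 ± 0.32 and IRF8 at -0.58 ± 0.31 (SE). The 10 endothelial genes had a median of 0.28, with PECAM1, an adhesion molecule of endothelium and blood cells, at -0.46 ± 0.29 and RAMP2, a receptor partner for adrenomedullin, at -0.07 ± 0.36 (SE). The 4 red cell genes had a median of -0.37, with ALAS2, the first enzyme of haem synthesis in red cells, at -0.43 ± 0.80 and HBM, a globin gene, at -0.31 ± 0.79 (SE). By the adjusted p, 0 genes of these lists were called, and no list was tested as a set.

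**Figure D4:**
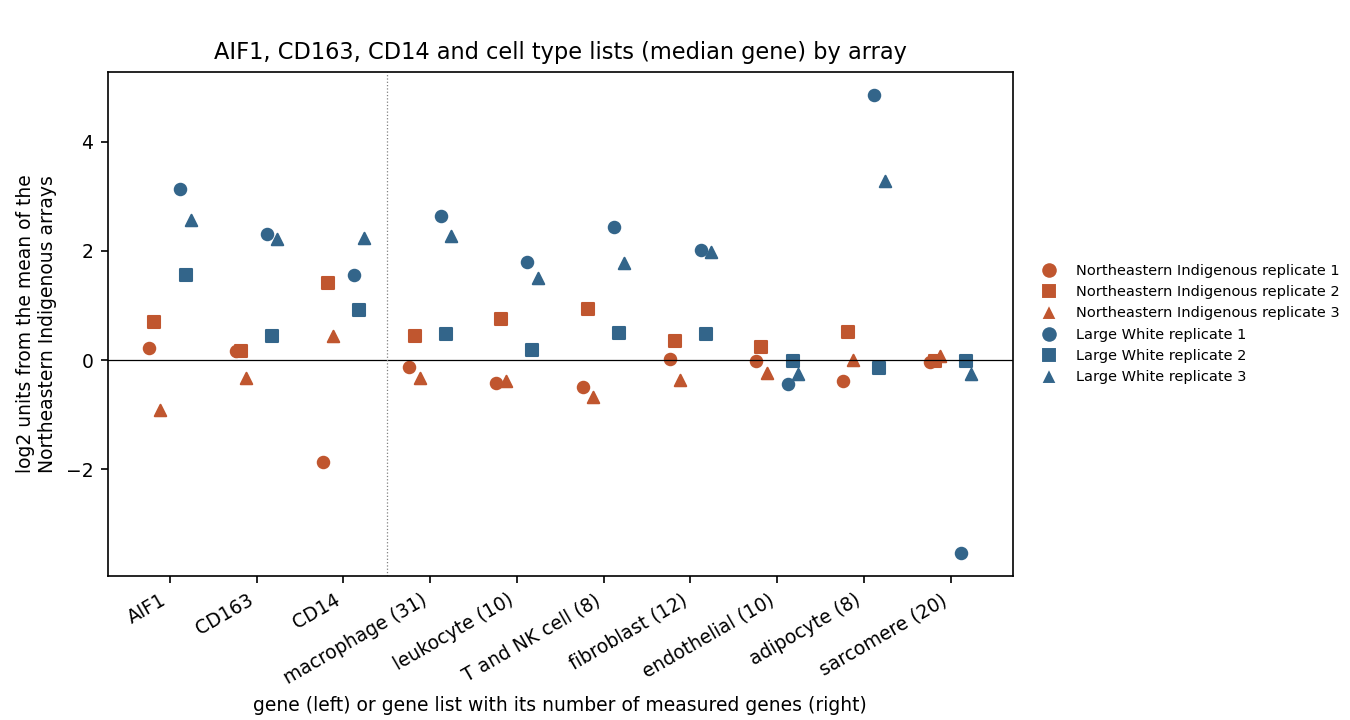
Position of AIF1, CD163, CD14 and of the median gene of 7 lists on each array (vertical axis, log2 units from the mean of the 3 Northeastern Indigenous arrays), with Northeastern Indigenous boars in orange on the left and Large White boars in blue on the right. Large White replicate 2 (blue square) lies close to 0 for adipocyte and sarcomere genes, at 0.47 for the macrophage list and at 1.56 for AIF1. CD14, CD86 (macrophage), PTPRC (leukocyte), PPARG and LIPE (adipocyte) and 5 of 8 T and NK cell genes were kept through their Large White values.

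The genes whose profile over the 6 arrays was closest to each member were found by the root mean square difference of the centred log2 values, among 5294 named genes. For AIF1 the nearest 5 were FKBP10, CD2, VCAM1, CD86 and C4BPA, with root mean square differences of 0.19 to 0.29, against a median of 1.46 over all genes. FKBP10 is a chaperone of collagen, CD2 an adhesion molecule of T and NK cells, VCAM1 a ligand for leukocyte integrins, CD86 a co-stimulatory molecule of antigen-presenting cells and C4BPA a complement regulator. For example, CD2 read 5.23, 6.43 and 4.62 in Northeastern Indigenous replicates 1, 2 and 3, against 8.42, 7.32 and 7.92 in Large White replicates 1, 2 and 3. As with AIF1, Northeastern Indigenous replicate 3 was the lowest and Large White replicate 1 the highest. CD2 and CD86 had Northeastern Indigenous means under the filter level and were kept through their Large White values.

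For CD163 the nearest 5 were SLA-3, HEBP2, TAGLN2, MXRA7 and RNASE4, at 0.10 to 0.15, against a median of 1.14. SLA-3 is a class I histocompatibility gene of the pig and TAGLN2 an actin-binding protein. SLA-3 read 11.15, 11.24 and 10.84 in Northeastern Indigenous replicates 1, 2 and 3, against 13.55, 11.59 and 13.21 in Large White replicates 1, 2 and 3. As with CD163, Large White replicates 1 and 3 were high and Large White replicate 2 lay just above the Northeastern Indigenous arrays. For CD14 the nearest 5 were PTPRA, FES, SLA-DOA, GNLY and RFLNA, at 0.40 to 0.54, against a median of 1.39. They shared its low value on Northeastern Indigenous replicate 1, where PTPRA read 2.93. Like CD14, PTPRA, FES, SLA-DOA and RFLNA had Northeastern Indigenous means under the filter level and were kept through their Large White values. FES is a tyrosine kinase of myeloid cells.

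Between the members, the root mean square difference was 0.55 for AIF1 and CD163, 1.20 for AIF1 and CD14 and 1.09 for CD14 and CD163. CD163 was the 101st nearest gene to AIF1, and CD14 the 1380th. These are descriptions over 6 arrays that share the split of the Large White boars, and genes that follow that split come out as near.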

How the data were processed

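The values deposited by the authors are linear intensities, 1 for each probe set on each of 6 arrays (3 Northeastern Indigenous and 3 Large White boars). Total RNA was turned into cRNA that carried biotin, per the labels' protocols. For software and genome build, nothing is given in the sources used here. After trimming the lowest and highest 2%, array means were 499.796 to 499.859, a shared scale set before deposit. Arrays have brightness and no read depth, and 3 per breed limit the precision.

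From the 24123 probe sets, 124 controls were left out. Symbols came from the platform annotation, in which 10069 probe sets had 1 symbol, 198 several and 13732 none; all 5 member symbols matched RefSeq (Sscrofa11.1). Intensities were taken as log2 and quantile normalized, since array medians spanned 0.35. Probe sets whose mean fell under the 40th percentile were left out. Limma 3.58.1 in R 4.3.3 (lmFit, eBayes with an intensity trend, two-sided, 4 residual degrees of freedom) gave Northeastern Indigenous minus Large White, and was tested on simulated data. A gene in a list was represented by its brightest probe set. The genes, lists, naming rule and tests were chosen with earlier results of these data known. Text names the members, the 5 genes of smallest p in the macrophage, leukocyte, lipopolysaccharide, iron and actin lists, a set of pathway genes, the 2 brightest genes of the other lists and the nearest 5 profiles. AIF1L and the tissue markers CKM and DES were added. The replicate numbers do not pair the animals: deviations from the breed means correlated at -0.02, -0.16 and -0.11. The labels call the samples biological replicates. A planned search of promoter motifs was not run, and no sequences are printed.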

Additional observations from a re-analysis of the deposited data

How the results depend on the processing

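The differences of AIF1, CD163 and CD14 stayed below 0 under all alternatives run for them, which were chosen with earlier results of these data known. Leaving out 1 array gave -2.84 to -1.96 for AIF1, -2.26 to -1.33 for CD163 and -2.28 to -0.64 for CD14; AIF1 (-2.84) and CD163 (-2.26) were called in limma without Large White replicate 2 and under no other alternative. CD14 was under the filter at the 60th percentile and has no value there. With the replicate number as a block the adjusted p were 0.336 for AIF1 (difference -2.42), 0.336 for CD163 (-1.66) and 0.366 for CD14 (-1.57), and 0 probe sets were called, so it changed no call. The count of called probe sets was 1 with arrays centred on their medians and 1 at an adjusted p under 0.1, and leaving out 1 array gave 0 to 4437. Without quantile normalization the median difference of all probe sets was -0.0065, against 0.10 with it, and AIF1, CD163 and CD14 were at -2.44, -1.77 and -1.73.

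Leaving out 1 array gave medians of -2.37 to -1.43 for the macrophage list, -1.64 to -0.94 for the leukocyte list, -0.72 to -0.20 for the lipopolysaccharide list, -0.08 to 0.11 for the iron list and -1.01 to -0.55 for the actin list. Without Large White replicates 1 and 3 together they were -0.47, -0.19, 0.072 and -0.26 for the macrophage, leukocyte, lipopolysaccharide and actin lists. The lipopolysaccharide median was also -0.60 with no filter and -0.60 with the filter at the 60th percentile, where other genes are measured. The breed difference of AIF1 minus CD14 ran from -1.89 to -0.16, and that of AIF1 minus CD163 from -1.03 to -0.47, with 1 array left out. That of CD163 minus CD14 ran from -1.10 to 0.54 with 1 array left out, and was above 0 without Northeastern Indigenous replicate 2 (0.54) or 3 (0.30) or Large White replicate 1 (0.25); the cause was not tested.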
